A study of Homo sapiens with 9 samples.

Results

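The ubiquitin-specific proteases (USPs) were taken as all protein coding genes of both deposited tables whose symbol is USP followed by a number and, in some cases, a letter. The rule found 52 of the 51274 genes listed, or of the 18907 listed as protein coding, and left out pseudogene copies such as USP32P2. A mean of more than 50 normalised reads in each table (baseMean, the mean over 6 libraries of reads divided by the DESeq2 size factor) was reached by 46 members. USP6, USP9Y, USP26, USP29, USP41 and USP51 stayed below it, with a baseMean of at most 20.7 with PABPN and 15.5 with PABPC, and received no call. All 52 genes had an entry in GENCODE release 44 on hg38, where 51 are coding and USP41 is a pseudogene.

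RNA immunoprecipitation (RIP) was performed with antibodies against the endogenous nuclear (PABPN) or cytoplasmic (PABPC) poly(A) binding protein, to ask which RNAs each protein holds at steady state. The lysates came from HEK293T, a human embryonic kidney cell line, and every group was treated alike with 0.1% formaldehyde for 10 min, which fixes proteins to the RNA they touch. The 3 groups were input RNA, PABPN RIP and PABPC RIP, with 3 libraries each, and both antibodies were applied to portions of the same lysate, so the 2 comparisons share their input libraries. No control RIP library was analysed here, and all cells were of 1 line without a genetic change named in the labels.

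Ubiquitin is a small protein that is joined to other proteins, singly or in chains, by the successive work of E1, E2 and E3 enzymes. Chains of some types send a protein to the proteasome, while other chains and single ubiquitins steer DNA repair, transcription, membrane traffic and signalling. Deubiquitinases cut ubiquitin off again, and the USPs, which are cysteine proteases, form the largest of their families in human cells. Many USPs come in related pairs, and several are known from one defined machine, such as USP22 in the SAGA coactivator, USP14 on the proteasome and USP39 in the spliceosome. Their messages are ordinary polyadenylated mRNAs, cleaved downstream of a hexamer that is most often AATAAA and next most often ATTAAA.

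The last 30 bases of 7 USP messages are shown because the poly(A) tail that either protein can bind would start at their right end if the annotated end is used. Ends used in these cells were not examined, and the gene of USP15 extends beyond its printed end, to 62417431. They are the mRNAs with the highest PABPC values (USP22, USP27X), with opposite calls in the 2 RIPs (USP5, USP39, USP49), and with low PABPC values (USP15, USP25). Sequences are from the hg38 genome at the end of the canonical transcript in GENCODE 44, written 5′ to 3′ on the strand of the gene as DNA, with either hexamer in capitals. For USP27X the capitals mark a variant, AGTAAA.
USP22 (chr17:20999596-20999625, minus strand): tatgtcatAATAAAgctacattttctctga
USP27X (chrX:49882529-49882558, plus strand): gggactcAGTAAAcgtttgttggatccaaa
USP5 (chr12:6866603-6866632, plus strand): cacgatgtgAATAAAagtacaacggctaaa
USP39 (chr2:85649254-85649283, plus strand): tggATTAAAtagtctcctgtttttaaacca
USP49 (chr6:41789896-41789925, minus strand): aaaagtttcttATTAAAagAATAAAatgac
USP15 (chr12:62416360-62416389, plus strand): tgtaaaagttATTAAAcaagttttctgaaa
USP25 (chr21:15880035-15880064, plus strand): atccttaatattttatgacattctaccaca
The 30 bases of USP25 held none of these 3 hexamers, of which AGTAAA was looked for in the printed bases only.

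Depth, estimated from baseMean as reads counted on the listed genes, ran from 36.5 to 52.2 M per library. Each of 6 genes known from HEK293T cells (PAX2, LHX1, NEFL, NEFM, INA, VIM) passed the limit on reads, against 1 of 7 markers of blood, liver, endothelial and connective tissue cells (COL1A1). The deposited values are log2 fold changes of RIP over input with standard errors (SE), so the replicates enter each value through its SE, and values per library were not analysed here. A gene was called enriched above 0.5 and depleted below -0.5 on the log2 scale, at an adjusted p of at most 0.01 in DESeq2. Normalised reads given below are group means worked out from baseMean and fold change. They are not divided by gene length and compare groups for 1 gene only, and the 2 tables carry different size factors, so the input mean of a gene differs between them by a constant factor.

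Most USP messages were neither enriched nor depleted in the PABPN RIP. Of 46 members, 4 were enriched (8.70%, against 17.5% of all genes tested), 5 were depleted (10.9%, against 14.6%) and 37 were neither. With fold changes scaled to total reads instead, 7 were enriched and 3 depleted, and the shares over all genes at that scaling are not given here. The median log2 fold change of the members was -0.21 (range -1.14 to 0.92) beside -0.041 over all genes tested and -0.087 over protein coding genes, and was -0.17 after centring and -0.074 after scaling to total reads. The members stood closer together (SD over genes 0.44) than protein coding genes did (SD 0.65), while the SE of a single member lay between 0.0878 and 0.195. Another 8 members passed the adjusted p but had a smaller change than the cut-off, among them USP22 at -0.48 (SE 0.118) and USP20 at 0.44 (SE 0.108).

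The 4 messages enriched with PABPN were those of USP43, USP44, USP35 and USP49. USP43 (chr17:9644698-9729687, plus strand) had 914 normalised reads in input and 1727 in the PABPN RIP, a log2 fold change of 0.92 (SE 0.107, DESeq2 adjusted p 1.90e-16). USP44 (chr12:95516560-95551476, minus strand), which removes ubiquitin from histone H2B and guards the spindle checkpoint, went from 246.0 reads to 457 and stood at 0.89 (SE 0.165, DESeq2 adjusted p 5.07e-07). For USP35 (chr11:78188812-78215232, plus strand) the means were 539 and 958 reads and the value 0.83 (SE 0.120, DESeq2 adjusted p 7.92e-11). USP49 (chr6:41789896-41895375, minus strand), another H2B deubiquitinase, had 2461 and 3869 reads and a value of 0.65 (SE 0.0906, DESeq2 adjusted p 8.50e-12). The gene with the next highest value was USP20, which was not called.

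The 5 messages depleted from PABPN include those of a chain recycling enzyme, an enzyme acting on MDM2 and a splicing protein. USP5 (chr12:6852148-6866632, plus strand), which takes apart free ubiquitin chains, was lowest, with 3631 reads in input and 1647 in the PABPN RIP, a log2 fold change of -1.14 (SE 0.147, DESeq2 adjusted p 1.37e-13). USP11 (chrX:47232866-47248328, plus strand) followed with 3871 and 1861 reads and a value of -1.06 (SE 0.0969, DESeq2 adjusted p 5.87e-26). These 2 were the members with more than a 2-fold change, at 2.20-fold and 2.08-fold below input. USP38 (chr4:143184917-143223874, plus strand) had 2429 and 1356 reads and stood at -0.84 (SE 0.150, DESeq2 adjusted p 1.77e-07). USP7 (chr16:8892097-8975328, minus strand), which acts on the ubiquitin ligase MDM2, had 9154 and 5989 reads and stood at -0.61 (SE 0.128, DESeq2 adjusted p 9.79e-06). USP39 (chr2:85602856-85649283, plus strand), a spliceosome protein that has lost the catalytic residues of its family, had 4348 and 2952 reads and stood at -0.56 (SE 0.118, DESeq2 adjusted p 1.41e-05). USP7 and USP39 were near the cut-off and fell short of it when the fold changes were scaled to total reads (-0.48 and -0.42).

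In the PABPC RIP, depleted USP messages outnumbered enriched ones. There were 8 enriched members (17.4%, against 38.4% of all genes tested), 19 depleted members (41.3%, against 32.4%) and 19 that were neither. The median of the members was -0.39 (range -2.07 to 1.14), below the 0.14 of all genes tested and the 0.25 of protein coding genes. It was also negative after centring on the median of all genes (-0.53) and after scaling to total reads (-0.58). The SD over members was 0.77 and the SE of a single member between 0.0883 and 0.224, and the plot of all members shows this wider spread beside the narrow one of the PABPN values. Protein coding genes also spread more widely with PABPC (SD 1.29) than with PABPN (SD 0.65), and more widely than the members in both RIPs.

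**Figure D1:**
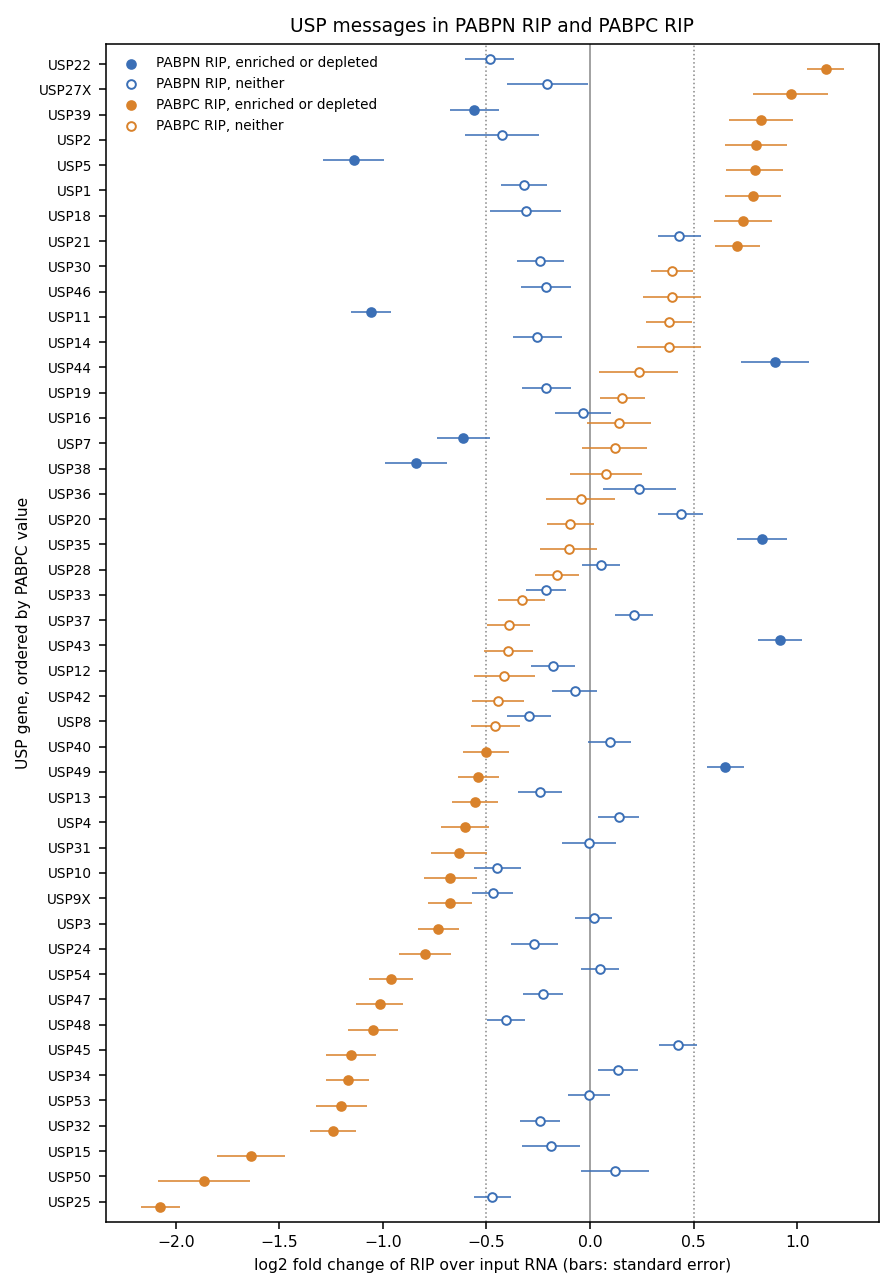
Log2 fold change of RIP over input RNA (x axis) for the 46 USP genes with enough reads (y axis, ordered by the PABPC value); blue points are PABPN RIP, orange points PABPC RIP, filled points were called and bars are standard errors. PABPC values run from -2.07 (USP25) to 1.14 (USP22), while PABPN values lie between -1.14 (USP5) and 0.92 (USP43).

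The 8 messages enriched with PABPC were those of USP22, USP27X, USP39, USP2, USP5, USP1, USP18 and USP21. USP22 (chr17:20999596-21043760, minus strand), the deubiquitinase of the SAGA complex, had 13159 normalised reads in input and 28950 in the PABPC RIP, a log2 fold change of 1.14 (SE 0.0883, DESeq2 adjusted p 5.64e-37), and was the one member with more than a 2-fold increase. USP27X (chrX:49879484-49882558, plus strand), a related gene without introns, had 124 and 242 reads and stood at 0.97 (SE 0.182, DESeq2 adjusted p 2.91e-07). USP39 had 3720 and 6593 reads and a value of 0.83 (SE 0.155, DESeq2 adjusted p 3.24e-07). USP2 (chr11:119355215-119381711, minus strand) had 259 and 451 reads and a value of 0.80 (SE 0.151, DESeq2 adjusted p 2.91e-07). An antisense gene, USP2-AS1, covers 95.3% of its span in GENCODE 44, and neither the strand setting of the counting nor the part of this overlap that the authors removed is known here, so the value of USP2 is uncertain. USP5 had 3106 and 5386 reads and a value of 0.79 (SE 0.139, DESeq2 adjusted p 3.29e-08). The remaining 3 stood at 0.79 (USP1), 0.74 (USP18) and 0.71 (USP21).

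The 5 lowest messages with PABPC were those of USP25, USP50, USP15, USP32 and USP53. USP25 (chr21:15729982-15880064, plus strand), an enzyme of immune signalling, fell from 11309 normalised reads in input to 2684 in the PABPC RIP, a log2 fold change of -2.07 (SE 0.0939, DESeq2 adjusted p 2.66e-106), or 4.21-fold below input. USP50 (chr15:50494018-50546708, minus strand), a member without known protease activity, had 166 and 45.7 reads and stood at -1.86 (SE 0.224, DESeq2 adjusted p 4.16e-16). USP15 (chr12:62260338-62417431, plus strand), which acts in TGF-beta signalling, had 7347 and 2360 reads and stood at -1.64 (SE 0.164, DESeq2 adjusted p 1.02e-22). USP32 (chr17:60177327-60422470, minus strand), an endosomal enzyme, had 5125 and 2170 reads and stood at -1.24 (SE 0.111, DESeq2 adjusted p 3.94e-28). USP53 (chr4:119212587-119295518, plus strand), a tight junction protein, had 4532 and 1970 reads and stood at -1.20 (SE 0.123, DESeq2 adjusted p 1.01e-21). Another 14 members were depleted, from -1.17 (USP34) to -0.50 (USP40). Among these, USP34, USP45 (-1.15), USP48 (-1.05) and USP47 (-1.02) were more than 2-fold below input.

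The fold changes of both RIPs were then compared directly, as the difference PABPN minus PABPC, which on the log2 scale is the ratio of the RIPs. At a difference beyond 0.5 and an adjusted p of at most 0.01 (two-sided normal test), 20 members were higher with PABPN (43.5%, against 36.1% of all genes tested), 13 were higher with PABPC (28.3%, against 33.4%) and 13 were neither. Scaled to total reads, the PABPN side gained members (27) and the PABPC side lost some (8), and the shares over all genes at that scaling are not given here. The difference was highest for USP50 (1.98, error 0.277), USP25 (1.60, error 0.129), USP45 (1.58, error 0.152), USP15 (1.45, error 0.216) and USP43 (1.31, error 0.160). It was lowest for USP5 (-1.93, error 0.202), USP22 (-1.62, error 0.147), USP11 (-1.44, error 0.148), USP39 (-1.38, error 0.195) and USP2 (-1.23, error 0.233). With the DESeq2 size factors, USP5 was thus 3.82-fold higher in the PABPC RIP and USP25 3.04-fold higher in the PABPN RIP. Scaled to total reads, their differences were -1.61 and 1.93, so the order of their sizes depends on the scaling. Because the input libraries are the same in both tables, the summed errors overstate the error of these differences.

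Set side by side, the calls of the RIPs fell into 7 combinations. Of all genes tested, 17.5% were enriched with PABPN and 14.6% depleted, and 38.4% were enriched with PABPC and 32.4% depleted. The shares of the combinations over all genes are not given here, so the counts below describe the members only. Neither call was made for 13 members, and 18 were depleted from PABPC alone. Enrichment with PABPC alone was found for 6 members (USP1, USP2, USP18, USP21, USP22, USP27X), enrichment with PABPN alone for 3 (USP35, USP43, USP44) and depletion from PABPN alone for 3 (USP7, USP11, USP38). Opposite calls were made for 3 members. USP5 and USP39 were depleted from PABPN and enriched with PABPC, and USP49 was enriched with PABPN and depleted from PABPC, at -0.54 (SE 0.0997, DESeq2 adjusted p 1.99e-07) from 2104 reads in input to 1449.

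Histone deubiquitinases differed among themselves. USP22 and USP27X, of the SAGA group, were both enriched with PABPC and both higher with PABPC than with PABPN, by 1.62 and 1.18 (error 0.147 and 0.266). USP51, the third paralog, had too few reads. Of the partners of USP22 in that module, ATXN7L3 was enriched in both RIPs (0.51 with PABPN and 2.01 with PABPC), ENY2 with PABPC (1.43, SE 0.145), and ATXN7 was depleted from PABPC (-1.52, SE 0.0972). Of 6 members grouped under chromatin, USP44 and USP49 were enriched with PABPN. USP22 and USP27X, grouped under SAGA, had negative PABPN values and no call there (-0.48 and -0.21). Among the enzymes known to act on H2A, USP3 and USP48 were depleted from PABPC (-0.73, SE 0.0983, and -1.05, SE 0.120), while USP16 was called in neither RIP (-0.035, SE 0.136, and 0.14, SE 0.154). USP21, also an H2A enzyme, was enriched with PABPC at 0.71 (SE 0.108) and had a PABPN value of 0.43 (SE 0.104).

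Several of these genes have close overlapping neighbours that bear on their counts. In GENCODE 44, other genes cover 97.1% of the span of USP49, 92.9% of USP13, 55.9% of USP3 (the antisense gene USP3-AS1), 38.7% of USP50 and 23.2% of USP8, the last 2 overlapping each other. The authors removed stretches shared by overlapping genes in their older annotation before counting, and how much of each of these genes was left was not examined here.

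Members with a role in DNA repair and nuclear signalling also went different ways. USP1 (chr1:62436297-62451804, plus strand), which takes ubiquitin off FANCD2 and PCNA, had 4621 reads in input and 7970 in the PABPC RIP (0.79, SE 0.135, DESeq2 adjusted p 1.79e-08). Its activator WDR48 was also enriched with PABPC (0.60, SE 0.138), its substrate PCNA was enriched with PABPC and depleted from PABPN (0.90 and -1.37), and FANCD2 was enriched with PABPN (0.71, SE 0.0969). WDR48 also activates USP12 and USP46, neither of which was called in either RIP. USP45, which acts on the repair nuclease ERCC1, was depleted from PABPC (-1.15, SE 0.122) and stood at 0.42 (SE 0.0908) with PABPN. USP7 had 7832 reads in input and 8501 in the PABPC RIP (0.12, SE 0.158), whereas its substrate MDM2 was enriched with PABPC (0.58, SE 0.133). USP10, which binds the stress granule protein G3BP1, was depleted from PABPC (-0.67, SE 0.128), while G3BP1 was enriched with PABPC and depleted from PABPN (0.64 and -0.55).

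Enzymes of chain recycling, splicing and signalling made up much of the rest. USP14, which trims chains on the proteasome, was called in neither RIP (-0.25, SE 0.116, with PABPN and 0.38, SE 0.154, with PABPC), and USP13, the paralog of USP5, was depleted from PABPC (-0.56, SE 0.112). Of the group of USP4, USP11 and USP15, which share their domain order, USP4 and USP15 were depleted from PABPC and USP11 from PABPN. Among 11 members grouped under signalling and protein stability, 6 were depleted from PABPC (USP9X, USP24, USP25, USP31, USP34, USP47), and none was enriched with it. Of all measured members 41.3% were depleted and 17.4% enriched, and of all genes tested 32.4% and 38.4%. The 6 depleted genes span 88.0 kb (USP31) to 284 kb (USP34). Of protein coding genes, 33.0% between 50 and 100 kb and 78.6% above 100 kb were depleted from PABPC. Whether span accounts for the count was not tested. USP50, USP53 and USP54, listed here as a group of 3, were each depleted from PABPC, with values from -1.86 to -0.96. Each was higher with PABPN than with PABPC. USP39, which was grouped under splicing, was enriched with PABPC (0.83) and higher with PABPC than with PABPN. A group of 3 is a description of its members, beside the 32.4% of all genes that were depleted.

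USP30, on the mitochondrial outer membrane, and USP19, which has a form in the endoplasmic reticulum, were called in neither RIP, with PABPN values of -0.24 (SE 0.113) and -0.21 (SE 0.117) and PABPC values of 0.40 (SE 0.103) and 0.15 (SE 0.109). USP8, which acts on endosomal cargo such as EGFR, stood at -0.29 (SE 0.108) with PABPN and was just short of the cut-off with PABPC (-0.46, SE 0.118), whereas USP32, also of endosomes, was depleted from PABPC as given above. USP18, which removes the ubiquitin-like ISG15, was enriched with PABPC (0.74, SE 0.140) and stood at -0.31 (SE 0.171) with PABPN. The nucleolar enzyme USP36 and the related USP42 were called in neither RIP.

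To set related genes side by side, 15 pairs of related members with enough reads in both tables were compared within each RIP (30 tests, two-sided normal test, Benjamini-Hochberg adjusted, apart at a difference beyond 0.5 and an adjusted p of at most 0.01). In the PABPN RIP 6 pairs were apart and in the PABPC RIP 8 pairs. Pairs of unrelated genes were not compared, and USP4 was paired with both USP11 and USP15. The counts therefore do not show whether related genes are more alike than others. The difference was widest for USP25 and USP28 with PABPC, where USP28 stood at -0.16 and USP25 lower by 1.91 (error 0.142, adjusted p 3.89e-40). USP5 and USP13 were apart in both RIPs and in opposite orders, USP5 being lower with PABPN by 0.90 (error 0.182, adjusted p 2.59e-06) and higher with PABPC by 1.35 (error 0.178, adjusted p 2.77e-13). USP4 and USP11 also changed order, USP4 being higher with PABPN by 1.19 (error 0.139, adjusted p 7.37e-17) and lower with PABPC by 0.99 (error 0.161, adjusted p 5.09e-09). Near-identical copies (USP9X and USP9Y, USP6 and USP32, USP18 and USP41) may share reads, so the values of their measured members are uncertain to that extent.

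Other pairs were apart in 1 RIP. USP35 and USP38, which lay on opposite sides of input with PABPN, differed there by 1.67 (error 0.193, adjusted p 6.23e-17) and with PABPC by -0.18 (95% interval -0.61 to 0.25). USP31 and USP43 differed with PABPN by -0.92 (error 0.170, adjusted p 2.30e-07), as did USP20 and USP33 by 0.65 (error 0.145, adjusted p 2.15e-05). With PABPC the pairs apart included USP16 and USP45 (1.30, error 0.197, adjusted p 2.78e-10), USP4 and USP15 (1.03, error 0.201, adjusted p 1.07e-06), USP12 and USP46 (-0.81, error 0.204, adjusted p 0.000181), USP44 and USP49 (0.77, error 0.216, adjusted p 0.000767) and USP40 and USP47 (0.51, error 0.157, adjusted p 0.00224). The remaining pair apart in both RIPs was USP25 and USP28, with a PABPN difference of -0.52 (error 0.128, adjusted p 0.000115). In 4 pairs the genes were apart in neither RIP.

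**Figure D2:**
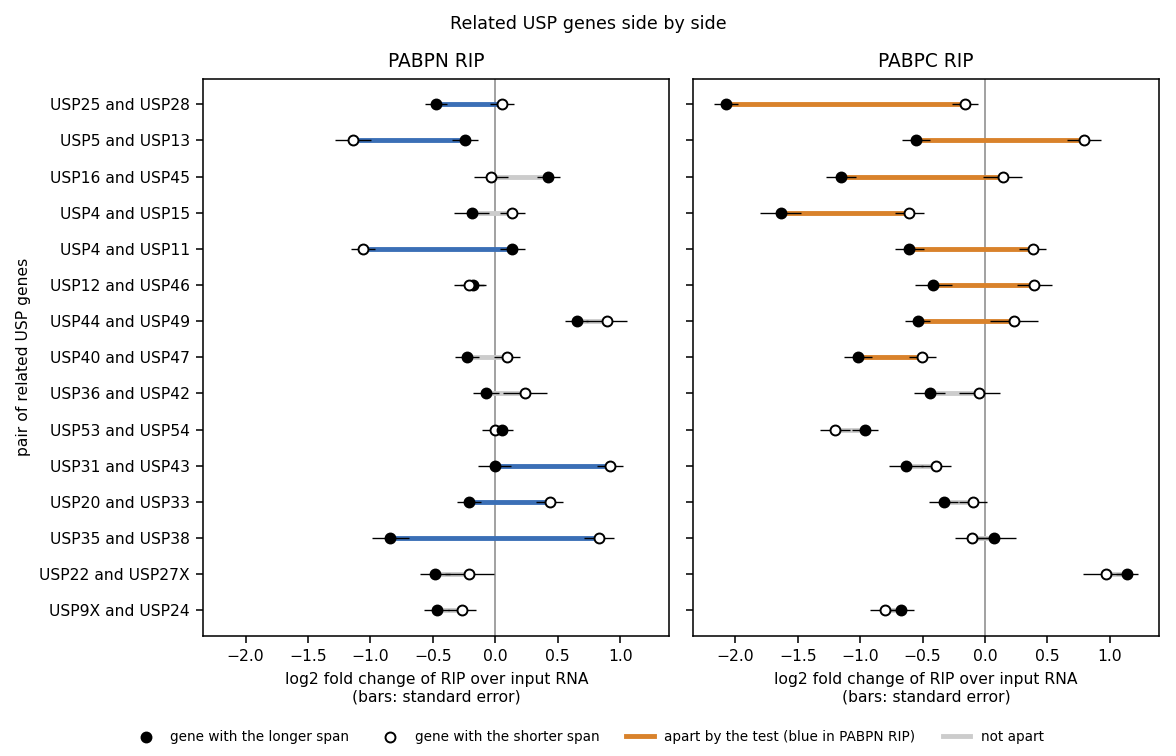
Log2 fold change over input RNA (x axis, bars are standard errors) of the 2 genes of each related pair (y axis), with PABPN RIP on the left and PABPC RIP on the right; filled points mark the gene with the longer span and coloured lines the pairs that were apart by the test. The longer gene was the lower one in 11 of the 15 pairs with PABPC, among them the 8 that were apart, and in 10 of the 15 with PABPN.

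In pairs that were not apart, the intervals show how much the genes could still differ. USP22 exceeded USP27X with PABPC by 0.17 (95% interval -0.23 to 0.57), although one spans 44.2 kb in 13 exons and the other 3.08 kb in 1 exon. USP9X and USP24, 2 very long genes of similar span (151 and 149 kb), differed by 0.12 with PABPC (95% interval -0.20 to 0.44) and by -0.20 with PABPN (95% interval -0.49 to 0.094). USP53 and USP54 differed by -0.055 with PABPN (95% interval -0.32 to 0.21) and by -0.24 with PABPC (95% interval -0.56 to 0.079).

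The pairs were also ordered by gene span, the distance from the start to the end of the gene with its introns. Over all 15 pairs the longer gene had the lower value in 11 with PABPC and in 10 with PABPN. Among the pairs that were apart this held for 8 of 8 with PABPC and 4 of 6 with PABPN, and whether the RIPs differ in this was not tested. Over the 46 members, span and PABPC fold change had a Spearman correlation of -0.79 (Pearson with log span -0.73), and -0.77 and -0.71 without the 2 genes farthest from the median span. Over 12450 protein coding genes it was -0.77. With PABPN the correlation was 0.078 over members and -0.14 over protein coding genes. Genes are not independent replicates, the points share all libraries, and reads of introns and exons were counted together.

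Grouped by span, enriched and depleted USP messages fell into different classes with PABPC. Of 15 members of at most 50 kb, 8 were enriched with PABPC and 0 depleted (median 0.71), beside 63.5% enriched and 6.92% depleted among protein coding genes of that span (median 0.84). Of 18 members between 50 and 100 kb, 0 were enriched and 8 depleted (median -0.45), beside 15.8% and 33.0% (median -0.21). Of 13 members above 100 kb, 0 were enriched and 11 depleted (median -0.96), beside 3.05% and 78.6% (median -1.26). With PABPN the 3 medians were -0.31, -0.0051 and -0.23, and 4 of the 5 depleted members had at most 50 kb. That class also held 2 enriched members, and among its protein coding genes 21.5% were enriched with PABPN and 20.7% depleted. In the longer 2 classes the protein coding shares were lower, at 8.89% and 12.6% between 50 and 100 kb and 3.12% and 10.6% above 100 kb. The median span of the measured members was 73.0 kb, from 3.08 kb (USP27X) to 284 kb (USP34), beside 37.9 kb for protein coding genes.

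**Figure D3:**
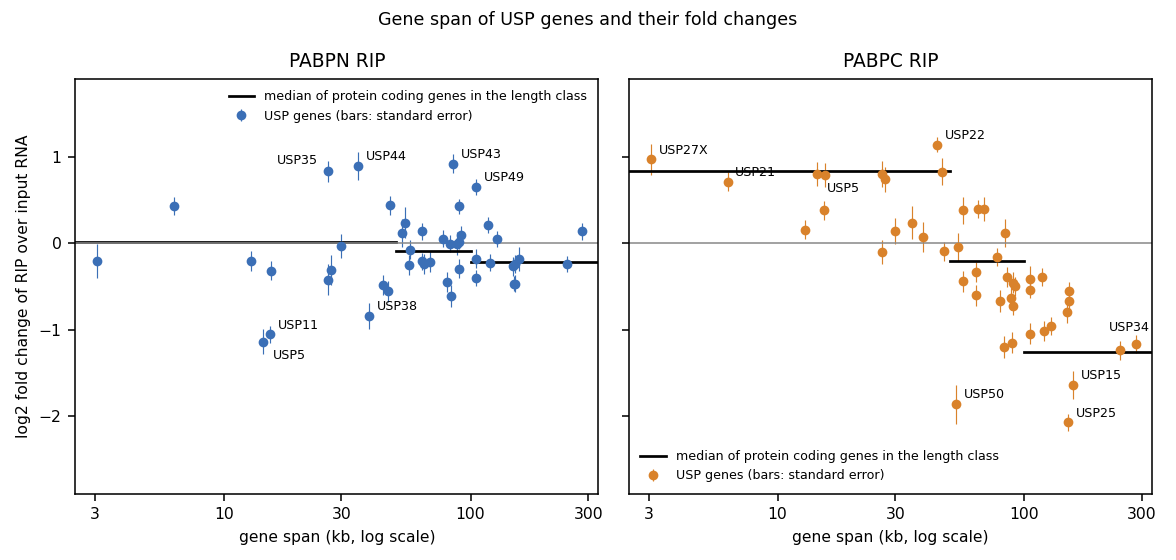
Log2 fold change over input RNA (y axis, bars are standard errors) against gene span in kb (x axis, log scale) for the 46 USP genes, with PABPN RIP on the left and PABPC RIP on the right; black lines are medians of protein coding genes in 3 length classes (up to 50 kb, 50 to 100 kb and above 100 kb). With PABPC no USP gene above 100 kb lies above -0.39, while PABPN values show no such slope.

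Within the length classes, USP50 spans 52.7 kb and was at -1.86 with PABPC, the lowest of the 18 members between 50 and 100 kb. In the same class USP30 (64.9 kb), USP46 (68.3 kb) and USP14 (56.2 kb) had the highest PABPC values (0.40, 0.39 and 0.38), none of them called. Up to 50 kb, USP35 (26.4 kb) and USP20 (47.1 kb) had the lowest PABPC values (-0.10 and -0.095). These 5 and USP50 were picked after their values had been seen.

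Other features of the messages were related to the PABPC fold change less closely, or as closely as span itself. The Spearman correlation over members, with that over protein coding genes in brackets, was -0.80 (-0.76) with the summed intron length. It was -0.66 (-0.48) with the deposited exonic length, -0.50 (-0.53) with coding length and -0.27 (-0.18) with the length of the 3′ untranslated region. With the share of G or C at the third codon position it was 0.44 (0.33). That share ran from 27.8% (USP1) to 78.7% (USP20) over members. With PABPN the correlation over members lay between -0.084 and 0.092 for these features and for the number of exons.

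Poly(A) signals at the 3′ ends were counted over all members. Within the last 40 bases of the canonical transcript, on the strand of the gene, AATAAA was found in 26 of 46 members (56.5%), beside 65.3% of 12450 protein coding genes. ATTAAA without AATAAA was found in 10 members (21.7%, beside 15.2%), and neither hexamer in 10 (21.7%, beside 19.5%). Those without either were USP1, USP4, USP11, USP25, USP27X, USP38, USP42, USP47, USP48 and USP53. Their median was -0.27 with PABPN and -0.52 with PABPC, beside -0.18 and -0.36 for members with a hexamer. A hexamer in the window is a description of the annotated end, and ends used in these cells may differ.

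The other deubiquitinases were counted in the same way. Of 34 measured genes of the UCH, OTU, MJD, JAMM and MINDY families together with ZUP1, 4 were enriched with PABPN and 2 depleted, while 15 were enriched with PABPC and 9 depleted. Among all genes tested the shares were 17.5% and 14.6% with PABPN and 38.4% and 32.4% with PABPC, beside which the counts of this list and of those that follow stand. The median of these 34 genes was -0.097 with PABPN, which turns to 0.038 when scaled to total reads, and 0.34 with PABPC, and their median span was 39.7 kb. The values reached from OTUD3 (1.33 with PABPN, SE 0.138) to PSMD14 (-0.59, SE 0.131), a proteasome subunit, and with PABPC from JOSD2 (1.98, SE 0.180) to OTUD7A (-3.12, SE 0.110). Of 3 genes with a USP domain but another name, PAN2, which shortens poly(A) tails and has no protease activity, was enriched with PABPN (0.69, SE 0.194), USPL1 was depleted from PABPC (-0.52, SE 0.143) and CYLD was called in neither RIP.

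The genes that put ubiquitin on, and the proteins that USPs bind or act on, were listed as well. Of 6 ubiquitin and E1 genes, 4 were depleted from PABPN and 3 enriched with PABPC, with medians of -1.51 and 0.91. Of 33 measured E2 genes, 3 were enriched with PABPN and 5 depleted, and 19 were enriched with PABPC and 4 depleted (medians -0.22 and 0.70). Their extremes with PABPN were UBE2G2 (0.91, SE 0.123) and UBE2M (-0.94, SE 0.152), and with PABPC UBE2M (2.31, SE 0.137) and UBE2E2 (-3.22, SE 0.119).

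Among 13 partner genes, 2 were enriched with PABPN and 3 depleted, and 6 were enriched with PABPC and 3 depleted (medians -0.15 and 0.29, which become -0.014 and 0.096 when scaled to total reads). Among 16 substrate genes the counts were 1 and 5 with PABPN and 7 and 4 with PABPC, with medians of -0.20 and 0.18, the last of which turns to -0.012 when scaled to total reads. The highest and lowest substrate genes with PABPN were FANCD2 (0.71, SE 0.0969) and PCNA (-1.37, SE 0.130), and with PABPC H2AZ1 (2.09, SE 0.157) and FBXW7 (-2.31, SE 0.144), a ubiquitin ligase subunit on which USP28 acts. USP28 also stabilises MYC, which was depleted from PABPN (-0.92, SE 0.142) and enriched with PABPC (0.79, SE 0.128), while USP28 itself was at 0.053 (SE 0.0932) and -0.16 (SE 0.106). The plot of gene lists sets the members beside these genes.

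**Figure D4:**
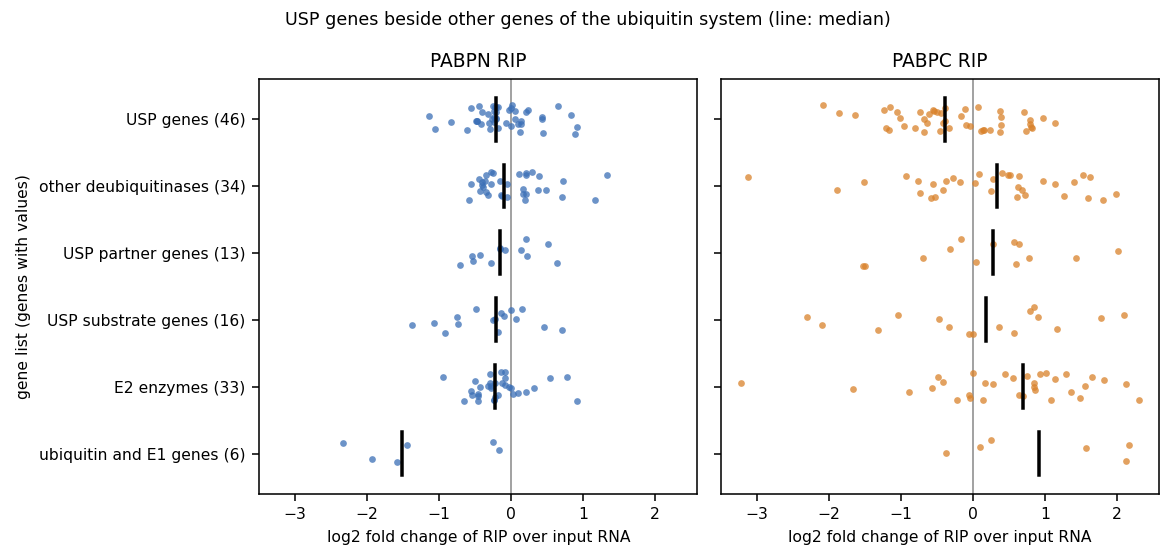
Log2 fold change over input RNA (x axis) of single genes (points, spread vertically for visibility) in the USP family and in 5 other lists of the ubiquitin system (y axis, with the number of genes), with PABPN RIP on the left and PABPC RIP on the right; black lines are medians. Median PABPC values were -0.39 for USP genes, 0.34 for other deubiquitinases and 0.70 for E2 enzymes.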

How the data were processed

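Total RNA was sequenced from 3 input, 3 PABPN RIP and 3 PABPC RIP libraries as single-end reads of 75 nt after depletion of ribosomal RNA. The authors aligned reads to hg38 with STAR and counted intronic and exonic reads together per gene with featureCounts 2.0.2 (minimum overlap 20 bases) on an annotation from GENCODE 34 and NCBI genes, from which stretches shared by overlapping genes had been removed. They removed genes entered by upstream transcription, per RIP. The authors deposited 2 DESeq2 tables, RIP against input, of 51111 and 51268 genes (123 repeated rows each, first kept). Per the file headers, the columns hold baseMean (a signal, the mean of size-factor normalised counts), log2 fold change and its standard error, the Wald score, and p-value with its Benjamini-Hochberg adjusted p-value; a length in bases is the authors' exonic length. RIP was thus compared with input by the authors' fit, whose formula and version are not given in the sources used here.

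Group means were computed from baseMean and fold change. Depth was estimated from the lowest baseMean values and limits the precision only through the standard errors. Differences between the RIPs and between related genes were tested with a two-sided normal test on summed squared standard errors, adjusted by Benjamini-Hochberg over all 14581 genes or over 30 pair tests. The test between the RIPs was checked on simulated data with normal errors of the size it assumes, which cannot examine that assumption. Gene structure and 3′ ends came from GENCODE 44 and hg38. Python 3.11.15, pandas 2.3.3, scipy 1.17.1 and matplotlib 3.10.9 were used. Samples were grouped by their titles. Members and gene lists were chosen with earlier results of these data known. Full values are given for the 5 highest and 5 lowest members of each comparison and for opposite calls; of other lists, the extremes and partners or substrates of a described USP were named, except some that are not reported here. Alternatives were other cut-offs, filters and scalings.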

Additional observations from a re-analysis of the deposited data

Results flagged for a closer look

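The messages called in opposite directions by the 2 RIPs were USP5, USP39 and USP49, and for each the difference between the RIPs passed its own test. USP5 differed by -1.93 (PABPN minus PABPC, log2 scale, error 0.202, adjusted p 5.09e-21). USP39 differed by -1.38 (error 0.195, adjusted p 4.25e-12), but its PABPN value falls short of the cut-off when scaled to total reads (-0.42), which ends its opposite call. USP49 differed by 1.19 in the other direction (error 0.135, adjusted p 4.16e-18), and overlapping genes cover 97.1% of its span, whose part in the result was not tested.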

How the results depend on the processing

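The cut-offs moved the counts of members most. Shares over all genes at the settings below are not given here, so these counts describe the members only. With a log2 cut-off of 1, 0 members were enriched with PABPN and 2 depleted, and 1 was enriched with PABPC and 9 depleted. A test that the change itself exceeds 0.5 left 1 and 2 with PABPN, and 1 and 10 with PABPC. At a difference beyond 1, 9 members were higher with PABPN and 8 with PABPC, and 2 pairs of related genes were apart with PABPN and 4 with PABPC. Scaling to total reads, which moves the median of all genes by 0.13 with PABPN and by -0.19 with PABPC, gave 7 enriched and 3 depleted members with PABPN and 8 members higher with PABPC than with PABPN. USP7 and USP39 then lost their PABPN call and USP20 gained one (0.57). The other counts, 31 in all over filters, centring, adjustments and errors, were within 1.5 times those reported. No called value of a member could change sign, since centring and scaling moved values by less than the cut-off of 0.5. No paired analysis was possible because values per library were not analysed here, so the replicate block and leaving out each replicate were not run.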

Other observations

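Genes named after a USP gene but outside the family, chosen after their values were seen, had these values. Of 50 listed copies, antisense and divergent genes, 5 had enough reads in both tables. USP32P2, a transcribed pseudogene copy of USP32, was enriched in both RIPs (PABPN value 2.90, SE 0.140; PABPC value 1.27, SE 0.164), and USP32P3, another copy, was enriched with PABPN at 1.69 (SE 0.187) and stood at -0.18 (SE 0.241) with PABPC. Reads of these copies and of USP32 (-0.24 and -1.24) cannot be assigned with certainty.

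The antisense RNAs USP2-AS1 and USP3-AS1 were both depleted from PABPC, at -2.22 (SE 0.175) and -1.69 (SE 0.199), and were at 0.041 (SE 0.184) and 0.024 (SE 0.152) with PABPN. Their sense partners stood at 0.80 (USP2) and -0.73 (USP3) with PABPC. The divergent RNA USP34-DT was called in neither RIP (0.40, SE 0.168, and -0.43, SE 0.235).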
